A study of Homo sapiens with 10 samples.

Results

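The genes described here are 7 neighbours on the short arm of human chromosome 8, ZNF703, LINC01605, ERLIN2, BRF2, RAB11FIP1, GOT1L1 and KCNU1, out of 63827 annotated genes on the autosomes and chromosome X. They were chosen by the widths of the ZMYND8 peaks, since 4 of the 5 widest peaks of that list lie in this neighbourhood, so these widths are given below as a description and support nothing. The question was where dense ZMYND8 binding begins and ends around these genes, at their transcription start sites (TSSs), in their bodies and across 1.2 Mb in 50 kb steps.

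Chromatin immunoprecipitation followed by sequencing (ChIP-seq) was performed in HEK293, an established human embryonic kidney cell line. There were 10 samples, namely 2 each for ZMYND8, FLAG-ZMYND8, H3K14ac and H3K27ac, 1 input and 1 FLAG input. For the ZMYND8 samples, an antibody to ZMYND8 was used on Flp-In T-REx HEK293 cells, which the labels describe as stably expressing 3xFLAG-ZMYND8 or its N228F mutant without saying which. For the FLAG-ZMYND8 samples, Flp-In T-REx HEK293 cells with inducible 3xFLAG-ZMYND8 received 10 nM doxycycline, so that the tagged protein was overexpressed, and an anti-FLAG antibody was used. The data are 1 deposited peak list for each of these 2 targets, and the samples of histone marks and input DNA were not analysed here. In all samples the crosslinked chromatin was cut with micrococcal nuclease. The ZMYND8 list holds 15086 peaks and the FLAG-ZMYND8 list 63690 peaks, and 53.0% and 54.7% of them have the smallest width of their list, 151 bp and 167 bp. Replicates are not told apart in the lists and no reads are counted there, so no value has a replicate error or a known depth, and no test was made. Antibody, expression level and the doxycycline given in the labels differ together between the lists and cannot be told apart. The construct in the cells of the ZMYND8 samples is not settled and the FLAG samples have their own input, so cells and input may differ as well.

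ZMYND8 is a chromatin reader in which a PHD finger, a bromodomain and a PWWP domain lie side by side and contact modified histone tails and DNA. It is known from promoters and enhancers, where it works with repressor and demethylase complexes. ZNF703 encodes a zinc finger cofactor of transcription, and it is known, together with ERLIN2, BRF2 and RAB11FIP1, from a region that is often amplified in luminal breast tumours. Before ZNF703 the annotation has long non-coding RNA (lncRNA) genes, whereas protein-coding genes follow each other closely after it.

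At the TSSs the lists differed in how many of these genes they marked. Peaks with a midpoint no more than 3 kb from a TSS were counted there. ZMYND8 peaks were at the TSS of 2 of the 7 genes, ZNF703 and LINC01605, beside 34.1% of all protein-coding genes and 15.2% of all lncRNA genes. FLAG-ZMYND8 peaks were at the TSS of 6 of the 7, all but KCNU1, beside 58.1% of protein-coding and 30.2% of lncRNA genes. The ZMYND8 count amounted to 1 peak at each of these 2 TSSs, and the FLAG-ZMYND8 count to 16 peaks at 6 TSSs.

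**Figure D1:**
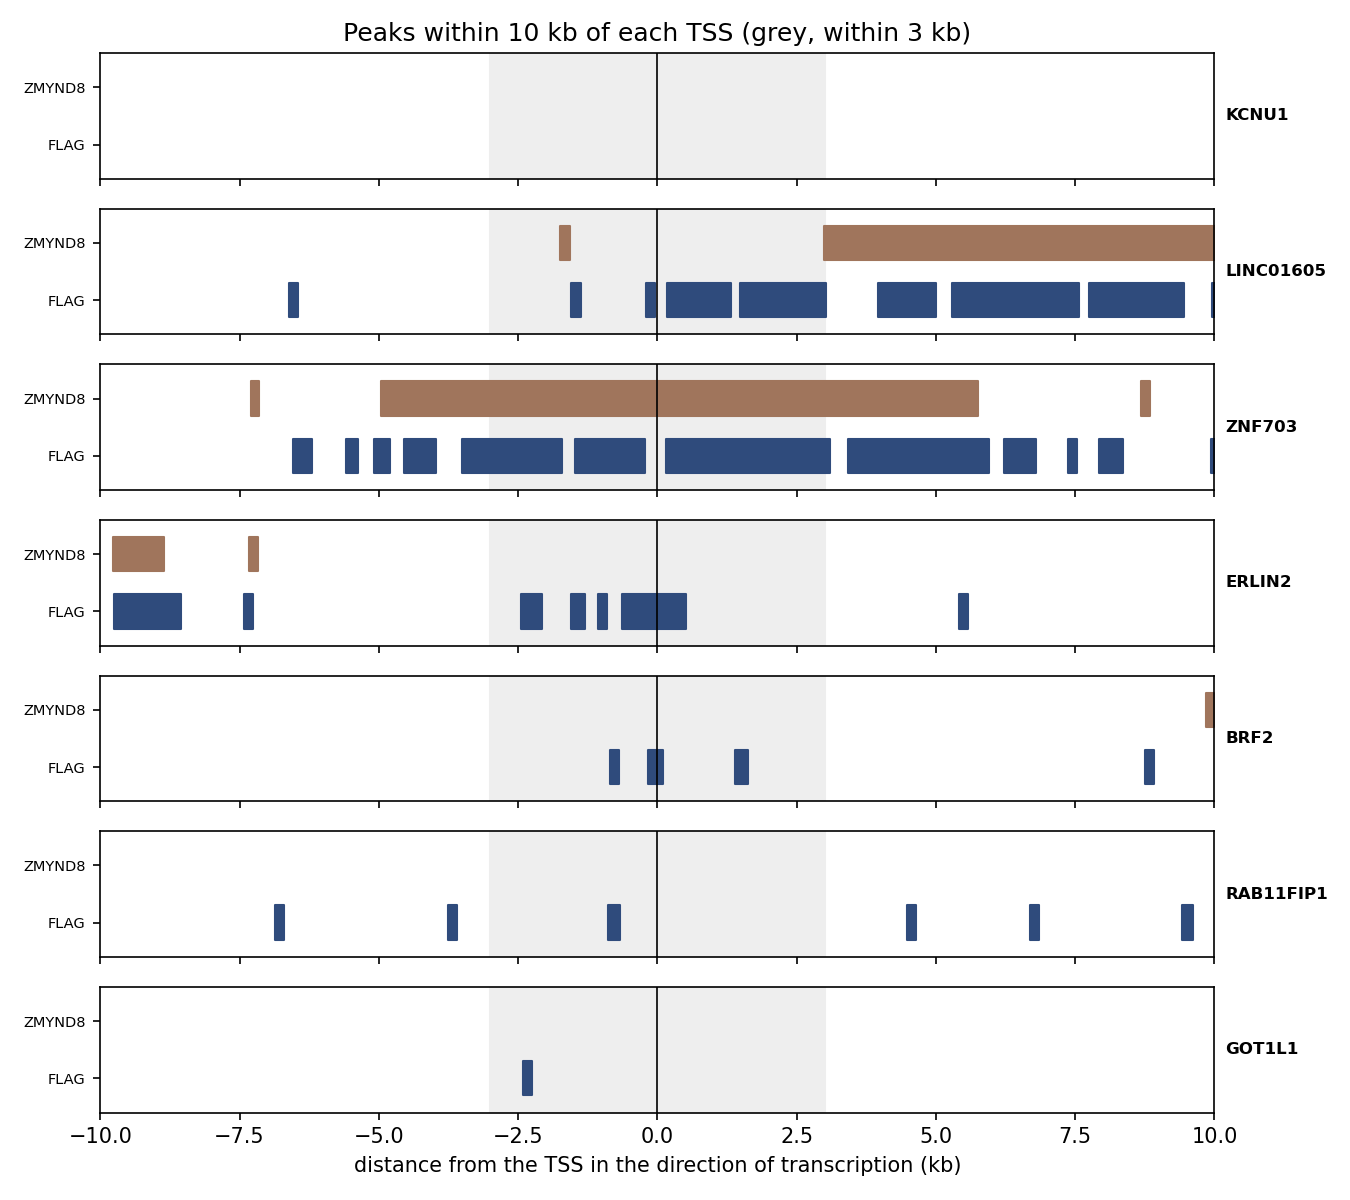
Peaks within 10 kb of the TSS of each of the 7 genes, drawn to scale along the direction of transcription (x axis in kb), with ZMYND8 peaks in the upper and FLAG-ZMYND8 peaks in the lower row of each panel. The wide ZMYND8 peak spans the ZNF703 TSS, another starts 2992 bp inside LINC01605, and the ERLIN2, BRF2, RAB11FIP1 and GOT1L1 panels hold only FLAG-ZMYND8 peaks within the grey 3 kb.

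ZNF703 (ENSG00000183779, hg19 chr8:37553300-37557537, plus strand) was covered from end to end by the widest ZMYND8 peak of the genome. This peak spans chr8:37548345-37559054, is 10710 bp wide and has its midpoint 400 bp after the TSS, within the coding sequence. In the FLAG-ZMYND8 list the same interval was broken into 6 peaks, which covered 84.6% of it. The 3 at the TSS were 1799, 1248 and 2937 bp wide, with midpoints 2604 bp and 848 bp before and 1628 bp after it. The FLAG-ZMYND8 peaks left the TSS itself uncovered, as they ended at 37553075 on its upstream side and began again at 37553460, 160 bp after it. They covered 88.7% of the gene, more than in 99.9% of protein-coding genes, whose median was 0.66%. The peak of 2937 bp ranked 22 by width in its list and was the widest FLAG-ZMYND8 peak of the neighbourhood.

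LINC01605, a long non-coding RNA gene (ENSG00000253161, chr8:37278859-37411701, minus strand), held most of the peaks found in the 7 genes. Its body of 133 kb contained the midpoints of 10 ZMYND8 and 56 FLAG-ZMYND8 peaks, out of 12 and 73 in the bodies of all 7. The 10 ZMYND8 peaks were between 151 and 7765 bp wide with a median of 618 bp, and they covered 11.0% of the gene, more than in 97.2% of lncRNA genes. The 56 FLAG-ZMYND8 peaks were between 167 and 2265 bp wide with a median of 308 bp, and they covered 24.3% of it, more than in 96.1% of lncRNA genes. From the 3′ end of the gene up to 37305547 neither list had a peak midpoint, and beyond that point peaks of both lists lay along the body as well as near its 5′ end.

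The 5′ end of LINC01605 was bound differently in the 2 lists. The ZMYND8 peak counted at its TSS was narrow, 193 bp at chr8:37413261-37413453, with its midpoint 1656 bp upstream, and no FLAG-ZMYND8 peak overlapped it. The second-widest ZMYND8 peak of the genome, 7765 bp at chr8:37400945-37408709, lay inside the gene and came within 2992 bp of the TSS, with its midpoint 6874 bp downstream. FLAG-ZMYND8 peaks of 1532 and 1158 bp lay between the edge of that wide peak, which the first of them overlapped, and the TSS, and peaks of 167 bp lay 119 and 1462 bp upstream of it. Alternative transcripts of LINC01605 start within the gene, at 37351352 to 37351431, where 1 ZMYND8 and 3 FLAG-ZMYND8 peaks lay within 3 kb and a FLAG-ZMYND8 peak covered the start. The annotation holds a further, short record of the same symbol (ENSG00000253414, chr8:37373917-37378965, minus strand), whose body was covered to 76.0% by FLAG-ZMYND8 and to 0% by ZMYND8 peaks. Its TSS had 2 ZMYND8 peaks within 3 kb, the wider of them 745 bp, and 3 FLAG-ZMYND8 peaks, the widest of them 2238 bp.

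ERLIN2, which encodes a membrane protein of the endoplasmic reticulum that helps to degrade activated inositol trisphosphate receptors, had FLAG-ZMYND8 peaks only. The gene (ENSG00000147475, chr8:37594119-37615940, plus strand) is the next protein-coding one after ZNF703. A FLAG-ZMYND8 peak of 1142 bp at chr8:37593489-37594630 covered its TSS, and 3 narrower ones of 371, 254 and 167 bp lay upstream, over or near the lncRNA gene ENSG00000183154 that is transcribed the other way. Only 1 FLAG-ZMYND8 midpoint, of a peak of 167 bp, fell in the 21.8 kb body, and 3.11% of the body was covered. The nearest ZMYND8 peak, 151 bp wide, had its midpoint 7250 bp before the TSS.

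At the TSSs of BRF2 and RAB11FIP1, which lie farther on, the FLAG-ZMYND8 peaks were narrower than the one over the ERLIN2 TSS, while more of the gene bodies was covered. BRF2 encodes a subunit of the RNA polymerase III initiation factor TFIIIB that serves promoters such as that of the U6 small nuclear RNA gene. The FLAG-ZMYND8 list had 3 peaks at its TSS (ENSG00000104221, chr8:37700786-37707379, minus strand), of which 1 of 279 bp covered the TSS and the others were 240 and 167 bp wide. FLAG-ZMYND8 peaks covered 5.25% of its body. The nearest ZMYND8 midpoint was 9917 bp away.

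RAB11FIP1 encodes an effector of Rab11 GTPases in the recycling of endosomes. Its TSS (ENSG00000156675, chr8:37716136-37757015, minus strand) had a single FLAG-ZMYND8 peak of 221 bp, 773 bp upstream. Its body of 40.9 kb held 12 FLAG-ZMYND8 peaks, between 167 and 341 bp wide, and they covered 6.0% of it, more than in 89.6% of protein-coding genes. By number this was 2.94 peaks per 10 kb, beside 4.22 in LINC01605, and the median width was 167 bp in RAB11FIP1 beside 308 bp in LINC01605. A single ZMYND8 peak of 151 bp lay in the RAB11FIP1 body at chr8:37744002-37744152 and overlapped a FLAG-ZMYND8 peak.

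GOT1L1 and KCNU1, which lie at the outer edges, had next to nothing in either list. GOT1L1 resembles the aspartate aminotransferases in sequence. Its body (ENSG00000169154, chr8:37791799-37797642, minus strand) held no peak, and the 1 FLAG-ZMYND8 peak counted at its TSS had the smallest width, 167 bp, lay 2334 bp upstream and fell in an intron of another gene (ENSG00000285880). The nearest ZMYND8 midpoint was 53565 bp away. KCNU1 encodes the potassium channel SLO3 of sperm. It was the only gene of the 7 with no peak of either list at its TSS (ENSG00000215262, chr8:36641842-36793643, plus strand), and its 152 kb body held 2 FLAG-ZMYND8 peaks of 167 and 209 bp that covered 0.248% of it. The nearest ZMYND8 midpoint to its TSS was 372368 bp away and the nearest FLAG-ZMYND8 midpoint 75905 bp.

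**Figure D2:**
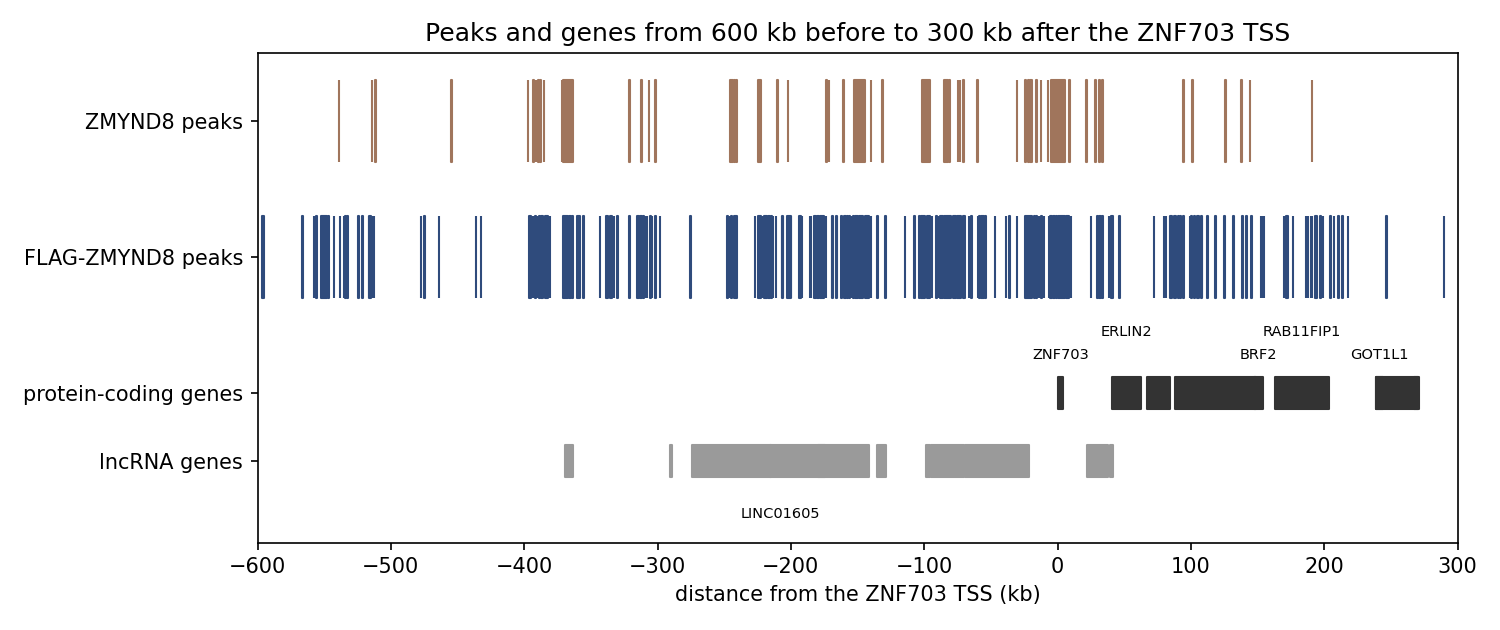
Positions of ZMYND8 peaks, FLAG-ZMYND8 peaks, protein-coding genes and lncRNA genes against the distance from the ZNF703 TSS (x axis in kb), with each peak drawn at its width or at 0.4 kb if narrower. ZMYND8 peaks are frequent before ZNF703, over the lncRNA genes, and scarce after it, while FLAG-ZMYND8 peaks go on to RAB11FIP1.

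Across the region, the genome was cut into 60716 steps of 50 kb, and a step was called dense when its bases under peaks reached the 99th percentile of all steps in the same list, 1325 bp for ZMYND8 and 3242 bp for FLAG-ZMYND8. By this rule 1.00% of the steps were dense in each list. Between 37 and 38.2 Mb, 7 of the 24 steps were dense for ZMYND8 and 11 of 24 for FLAG-ZMYND8, which is read with the choice of the neighbourhood in mind. The longest unbroken run, allowing 1 step below the limit inside it, was 300 kb for ZMYND8, from 37.3 to 37.6 Mb, and 550 kb for FLAG-ZMYND8, from 37.15 to 37.7 Mb. Each was the longest dense stretch of its list in the genome, of 550 and 462 stretches. The ZMYND8 run holds wide peaks that chose the neighbourhood, so the choice fixes its first place in part. Places in the genome were not recomputed under other settings. With 25 kb steps the FLAG-ZMYND8 run was 200 kb, from 37.3 to 37.5 Mb, and ended before the ZNF703 TSS, while the ZMYND8 run, from 37.45 to 37.6 Mb, still held it. By number of midpoints the ZMYND8 run was 450 kb, from 37.15 to 37.6 Mb. The FLAG-ZMYND8 run in 50 kb steps is called the dense stretch below, for both lists.

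**Figure D3:**
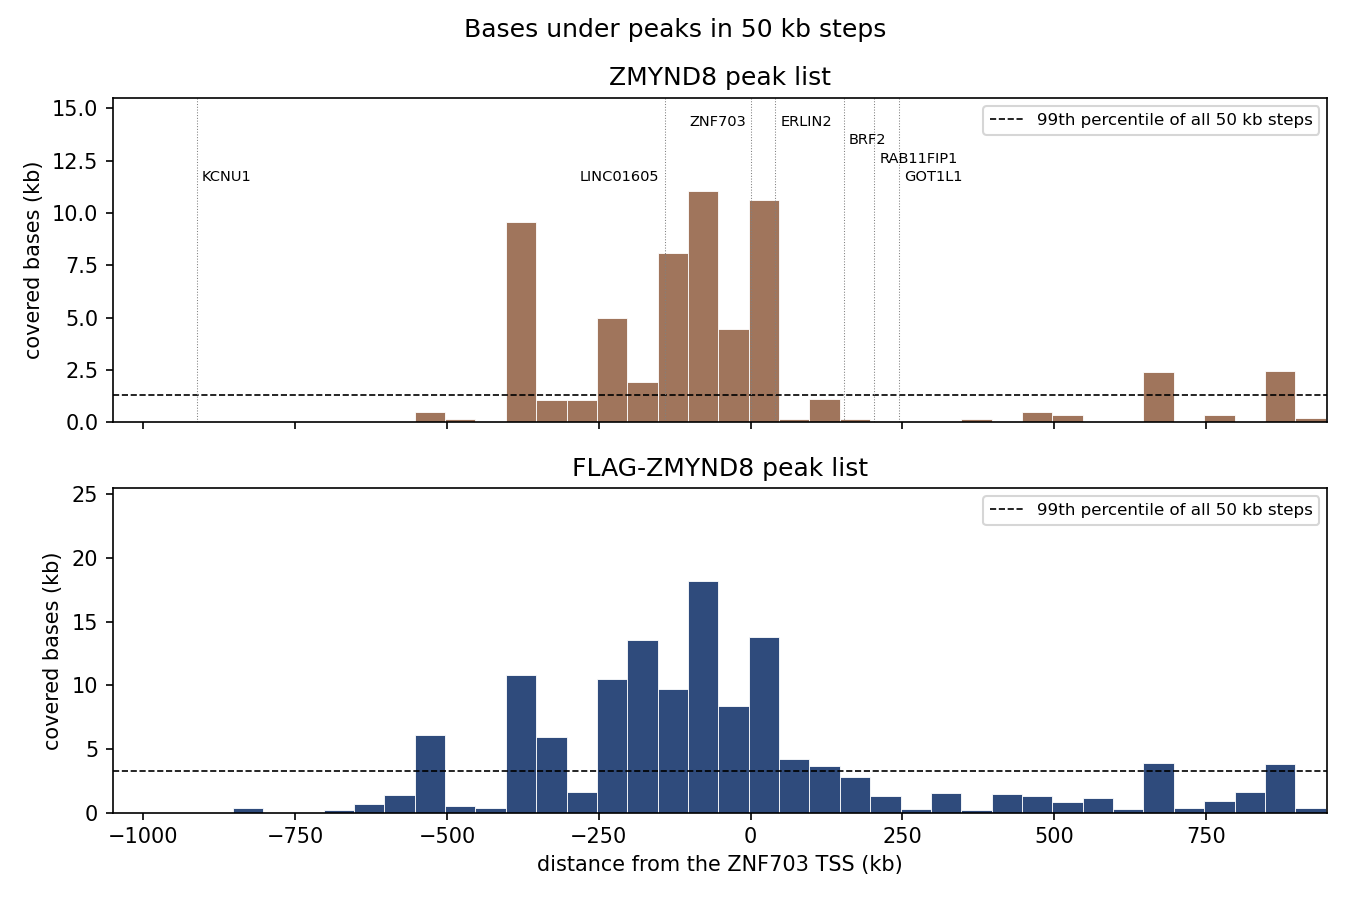
Bases under ZMYND8 peaks (upper panel) and FLAG-ZMYND8 peaks (lower panel), in kb, for each 50 kb step (bars) against the distance from the ZNF703 TSS, with the 99th percentile of all steps of the genome as a dashed line and the TSSs of the 7 genes as dotted lines. Bars over the line in the ZMYND8 panel stop with the step that holds ZNF703 and return only past 38.2 Mb, and the bars in the FLAG-ZMYND8 panel fall from 13808 to 1331 bp over the next 4 steps.

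Dense binding began abruptly on the KCNU1 side. Over the 1 Mb before 37 Mb the ZMYND8 list had 1 peak of 151 bp and the FLAG-ZMYND8 list 12 peaks that covered 2603 bp. A gap of 835 kb without any ZMYND8 peak ended at 37014134. The first dense step of FLAG-ZMYND8 was at 37.0 Mb, with 20 peaks over 6108 bp and none of them overlapping a ZMYND8 peak. The next 2 steps held 501 and 334 bp under FLAG-ZMYND8 peaks and 151 and 0 bp under ZMYND8 peaks. In the step at 37.15 Mb both lists were dense at once, with 8 ZMYND8 peaks over 9578 bp and 25 FLAG-ZMYND8 peaks over 10828 bp. A wide ZMYND8 peak there, 7464 bp at chr8:37182699-37190162, covered the whole of the lncRNA gene ENSG00000253123 (chr8:37184093-37189509), the nearest gene to this edge.

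Within the stretch the bases under peaks rose and fell in blocks. The steps at 37.2 and 37.25 Mb dropped to 1083 and 1082 bp under ZMYND8 peaks, just below the limit, and to 5975 and 1605 bp under FLAG-ZMYND8 peaks. From 37.3 Mb, where LINC01605 lies, the ZMYND8 values were 4990, 1924 and 8109 bp in successive steps, and the FLAG-ZMYND8 values were 10506, 13585 and 9715 bp. Both lists were highest in the step at 37.45 Mb, upstream of ZNF703, with 11068 bp under 7 ZMYND8 peaks and 18200 bp under 30 FLAG-ZMYND8 peaks. The step at 37.55 Mb, which holds ZNF703, followed with 10646 and 13808 bp. These steps ranked 2 and 3 of 60716 for ZMYND8 and 5 and 8 for FLAG-ZMYND8. The ZMYND8 peaks of 6430 and 10710 bp, which helped to choose the region, have their midpoints in these steps. The choice therefore fixes the ZMYND8 ranks in part.

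The end on the ERLIN2 side was sharp for ZMYND8 and gradual for FLAG-ZMYND8. The step at 37.6 Mb held a single ZMYND8 peak of 151 bp, and 60.8 kb after 37586945 were free of ZMYND8 peaks. A few followed, with 1122 bp in the step at 37.65 Mb, which lies inside ADGRA2, and none lay in the 178 kb from 37744153 on. The FLAG-ZMYND8 values went down over the same steps, to 4201, 3693, 2803, 1331 and 269 bp. Between 37.6 and 37.8 Mb, where ERLIN2, BRF2 and RAB11FIP1 lie, 48 FLAG-ZMYND8 peaks remained, which covered 6.01% of these bases beside 20.6% before 37.6 Mb, and their median width was 167 bp instead of 295 bp and none reached 1 kb, whereas 27 had done so before. Only 3 of these 48 overlapped a ZMYND8 peak, 6.25%, beside 26.9% of the 175 before 37.6 Mb. After the peak near GOT1L1, gaps of 43.0, 44.9 and 45.0 kb separated the FLAG-ZMYND8 peaks. Binding did not go back to the low level of the KCNU1 side, as the 1 Mb after 38.2 Mb held 12 ZMYND8 peaks over 6796 bp and 53 FLAG-ZMYND8 peaks over 16050 bp.

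The other genes of the region were counted in the same way. Of the 16 protein-coding genes with a TSS between 37 and 38.2 Mb, ZMYND8 peaks were at 3 TSSs, ZNF703 and, farther on, the adjacent BAG4 and LSM1, and FLAG-ZMYND8 peaks at 12, beside 34.1% and 58.1% of protein-coding genes in the genome. Neither list had a peak at PLPBP, ENSG00000285880, ADRB3 or DDHD2. PLPBP lies between ERLIN2 and ADGRA2, so unmarked TSSs occur already inside the dense stretch. The 11 protein-coding genes that are not among the 7 had ZMYND8 peaks at 2 TSSs and FLAG-ZMYND8 peaks at 7. Among lncRNA records, ZMYND8 marked the TSS of 5 and FLAG-ZMYND8 that of 8 of the 9 before ZNF703, beside 3 and 2 of the 10 after it and 15.2% and 30.2% of all lncRNA genes. All 9 TSSs before ZNF703 lie in the dense stretch, which these same peaks define, and LINC01605 counts there with both of its records. The choice of the region therefore fixes this contrast in part. ENSG00000253123 is not among the 5, although the ZMYND8 peak of 7464 bp covers its TSS, because the midpoint of that peak lies more than 3 kb away.

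When peaks were joined over gaps of at most 10 kb, the chain of ZMYND8 peaks around ZNF703 ran from 37522794 to 37562138. It was 39.3 kb long and held 9 peaks. Its rank by length was 4, or 1 with gaps of 5 kb, 11 with gaps of 20 kb and 6 with only the peaks wider than the minimum. It had 13669 bp under peaks, the most of any of 12402 chains and single peaks of the list. Of these, 10710 bp lay under the widest peak, so the choice of the region fixes this rank by bases in part. A ZMYND8 chain of 41.8 kb from 37451535, over the lncRNA genes upstream of ZNF703, ranked 2 by length. The chain at the 5′ end of LINC01605, of 29.3 kb, ranked 4 by bases, and it holds the peak of 7765 bp, which also chose the region. The FLAG-ZMYND8 chain around ZNF703 ran from 37438782 to 37563546. At 125 kb and 60 peaks it was the longest of 26748 in its list and ranked 3 by bases, but its rank by length was 25 with gaps of 5 kb, 8 with gaps of 20 kb and 56 with only the peaks wider than the minimum. The chain reached upstream past the ZNF703 TSS for most of its length but ended within 10 kb of its last base. The FLAG-ZMYND8 chains after it were shorter and thinner. Peaks covered 10.4% of the 82.8 kb that end just past BRF2 and 6.92% of the 48.3 kb through RAB11FIP1, beside 29.8% at ZNF703.

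The peaks of the dense stretch were wider than those elsewhere, which the choice of the region by width fixes in part. For ZMYND8, 49 peaks had a median width of 193 bp beside 151 bp in the rest of the list, and 20.4% beside 5.53% reached 1 kb. For FLAG-ZMYND8, whose widths did not choose the region although they enter the density rule, 202 peaks had a median of 264 bp beside 167 bp, and 13.4% beside 1.76% reached 1 kb. The median gap between neighbouring peaks was 5632 bp beside 60712 bp for ZMYND8 and 809 bp beside 6364 bp for FLAG-ZMYND8.

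**Figure D4:**
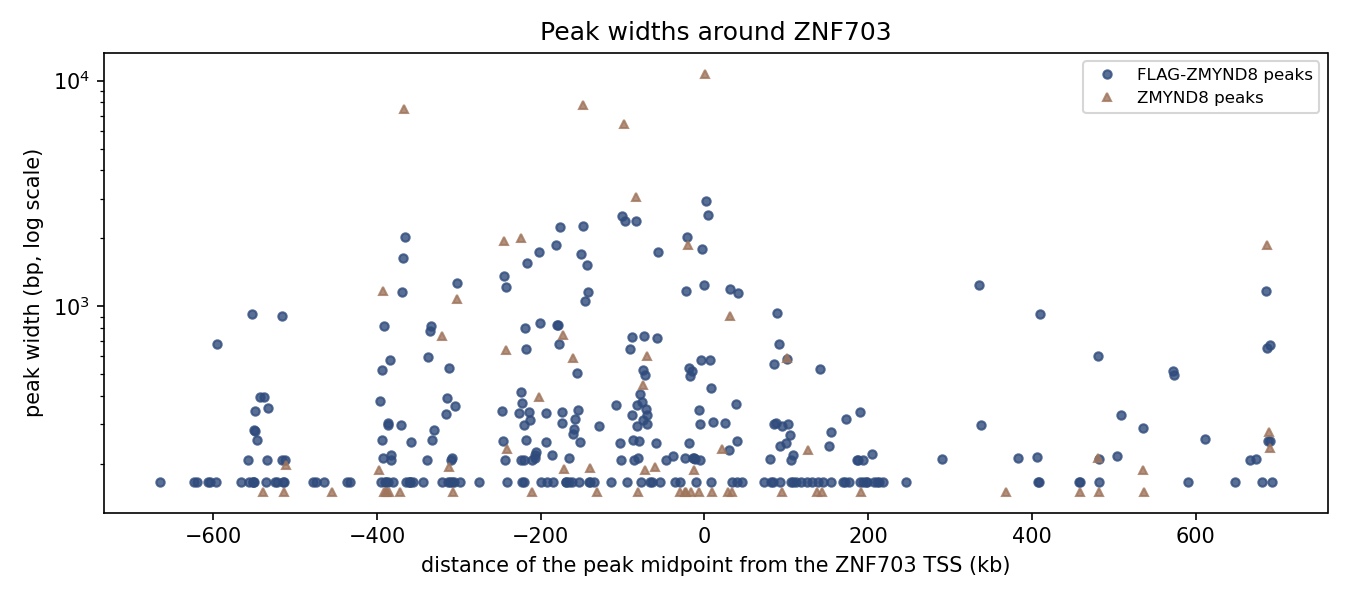
Width of each ZMYND8 peak (triangles) and FLAG-ZMYND8 peak (circles) in bp on a log scale against the distance of its midpoint from the ZNF703 TSS in kb. ZMYND8 peaks of over 6 kb stand at 4 places before and at ZNF703, and the widest FLAG-ZMYND8 peak, 2937 bp, stands at ZNF703.

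The lists met more often in the stretch than elsewhere. Of its 49 ZMYND8 peaks, 29 overlapped a FLAG-ZMYND8 peak by at least 1 bp, 59.2% (exact binomial 95% interval 44.2 to 73.0), beside 40.0% of the rest. Of its 202 FLAG-ZMYND8 peaks, 49 overlapped a ZMYND8 peak, 24.3% (18.5 to 30.8), beside 10.6%. These intervals cover counting error only, and more bases under peaks also give more room for overlap. Within classes of width the shares lay closer: 35.0% (15.4 to 59.2) of the 20 ZMYND8 peaks of minimum width were shared beside 21.3%, 63.2% (38.4 to 83.7) of the 19 between that and 1 kb beside 57.0%, and 10 of 10 of those of 1 kb or more (69.2 to 100) beside 91.5%. Each of these intervals for ZMYND8 includes the share in the rest of the list. For FLAG-ZMYND8, 74.1% (53.7 to 88.9) of the 27 peaks of 1 kb or more were shared beside 47.2%, and 10.5% (3.96 to 21.5) of the 57 of minimum width beside 3.49%. Both intervals lie above the share elsewhere. However, the region was chosen by wide ZMYND8 peaks, which fixes the FLAG-ZMYND8 shares of the stretch in part, and neighbouring peaks are not independent. Of the FLAG-ZMYND8 peaks between the minimum and 1 kb, 19.5% (12.8 to 27.8) were shared beside 18.1%. By bases, 37758 bp lay under both lists, which is 69.6% of the bases under ZMYND8 peaks and 37.6% of those under FLAG-ZMYND8 peaks.

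The wide peaks themselves were found again in the FLAG-ZMYND8 list, as 2 to 6 narrower peaks each. Of the 50 widest ZMYND8 peaks of the genome, 5 lay in the stretch. They were the peak over ZNF703, the one in LINC01605, the one over ENSG00000253123, one of 6430 bp over the lncRNA gene ENSG00000254290 and one of 3049 bp in the lncRNA gene ENSG00000254306. FLAG-ZMYND8 peaks covered 84.6%, 68.4%, 70.7%, 76.3% and 90.4% of them, with 6, 5, 5, 2 and 2 peaks. The median was 76.3% beside 58.8% for the 45 elsewhere, which ranged from 7.89 to 100%, so that the 5 lay within the range of the others. Each of the 45 also held FLAG-ZMYND8 peaks, between 1 and 6 of them, so this was not particular to the stretch. Their median was 2 peaks, or 0.736 per kb, beside 5 peaks, or 0.644 per kb, in the stretch. Only 1 of the 5, the one at ZNF703, covered a protein-coding TSS, whereas 26 of the 45 did. The 4 that chose the neighbourhood ran from 6430 to 10710 bp. The fifth of the list, in the hair follicle gene TCHH on chromosome 1, was 4789 bp wide, and the sixth, on chromosome 16, was 4781 bp wide.

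**Figure D5:**
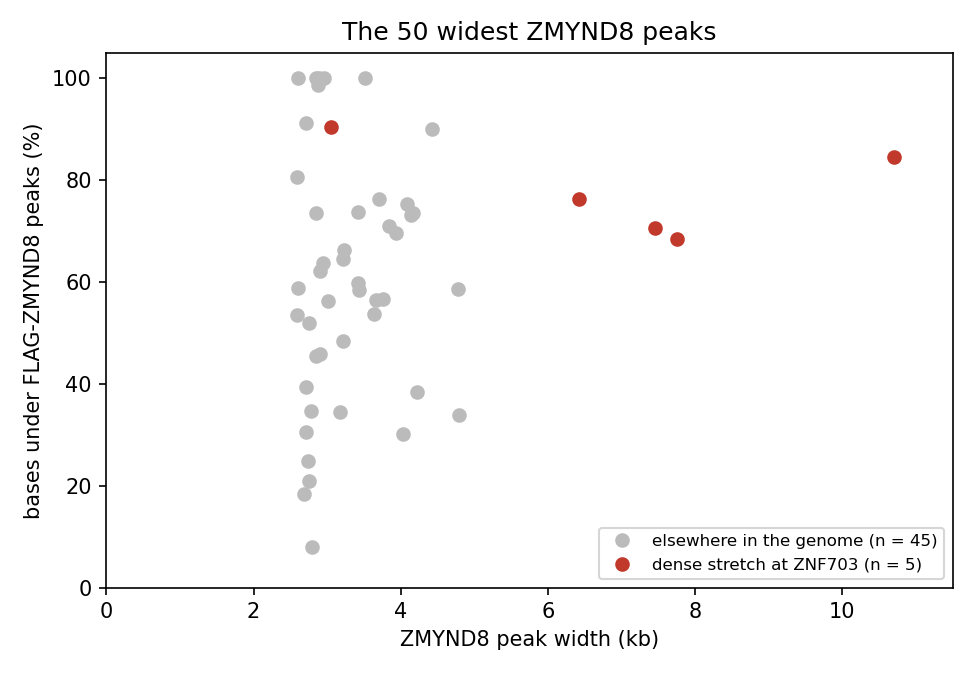
Share of each of the 50 widest ZMYND8 peaks that lay under FLAG-ZMYND8 peaks (y axis, %) against the ZMYND8 peak width (x axis, kb), for the 5 peaks of the dense stretch (red) and the 45 elsewhere (grey). The red points lie between 68.4 and 90.4%, within the 7.89 to 100% of the grey points, and 4 of them are wider than all grey points.

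Sequence and position were compared next. The choice did not use these measures, but it set the place, which fixes both in part. In the 200 bp about each midpoint, the median GC content was 50.5% for the ZMYND8 peaks of the stretch beside 60.5% for the rest, and the median number of CpG dinucleotides there was 2 beside 9. For FLAG-ZMYND8 it was 53.0% beside 58.0%, with 3 CpG beside 6. Windows of 200 bp in the stretch outside all peaks had a median of 45.0%, so the peaks were richer in GC than the DNA around them. The 3 wide ZMYND8 peaks over lncRNA genes had 49.2 to 50.8% GC over their whole width, and the peak over ZNF703 had 58.9%.

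Most of these peaks lay far from protein-coding TSSs. Only 1 of the 49 ZMYND8 peaks of the stretch, 2.04%, had its midpoint within 3 kb of one, beside 42.3% of the rest of the list, and the median distance was 98.5 kb beside 7.38 kb. For FLAG-ZMYND8 the numbers were 11 of 202, or 5.45% beside 30.2%, and 143 kb beside 13.3 kb. Inside lncRNA genes only lay 24 ZMYND8 peaks (49.0%) and 102 FLAG-ZMYND8 peaks (50.5%), and 38.8% and 37.1% lay between genes. These shares were not computed for the rest of the lists, and LINC01605 alone spans 133 kb of the 550 kb, so they describe the place only. The stretch holds only 4 protein-coding TSSs, all at or after ZNF703, so its place fixes the distances to them in part. Neighbouring peaks share their position, so these counts are not independent of each other.

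The stretch was compared with the next longest one of both lists, which lies over the HOXC genes of chromosome 12, a cluster of homeobox genes that pattern the body axis. That stretch was 450 kb long in the FLAG-ZMYND8 list, and 175 peaks covered 18.1% of it, beside 18.3% at ZNF703. The FLAG-ZMYND8 widths there had a median of 259 bp, close to the 264 bp at ZNF703. The ZMYND8 peaks differed more in number and bases, with 33 over 23986 bp and a widest of 4433 bp, beside 49 over 54217 bp at ZNF703. These totals are not scaled to length, and the stretch at ZNF703 is the longer one, 550 kb beside 450 kb. The widest peaks at ZNF703 chose the region, which fixes the difference in bases in part. The median ZMYND8 width was 191 bp beside 193 bp at ZNF703, and 18.2% beside 20.4% of the peaks reached 1 kb. Around HOXC, 24.2% of the peaks for ZMYND8 and 21.1% for FLAG-ZMYND8 were no more than 3 kb from a protein-coding TSS, of which that stretch has 15, beside 4 at ZNF703. The ZMYND8 shares that overlapped the other list were 60.6% there (42.1 to 77.1) and 59.2% at ZNF703, with overlapping intervals. The FLAG-ZMYND8 shares lay farther apart, with 15.4% there (10.4 to 21.6) and 24.3% at ZNF703 (18.5 to 30.8), though these intervals overlap too. Lower GC content than in the rest of the lists was seen around HOXC too, with a median of 56.5% and 4 CpG for ZMYND8 and 56.0% and 4 CpG for FLAG-ZMYND8.

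Relatives of these genes on other chromosomes were examined in the same way. Of 13 such genes, the TSS was marked in the ZMYND8 list for 6 and in the FLAG-ZMYND8 list for 11, beside 34.1% and 58.1% of all protein-coding genes. ZNF503, the closest relative of ZNF703 (chr10:77157588-77161522, minus strand), had no ZMYND8 peak at its TSS or in its body. In the FLAG-ZMYND8 list it had a peak of 2671 bp, 2232 bp upstream of the TSS, and one of 1571 bp, 1927 bp downstream, and 39.9% of its body was covered. As at ZNF703, these wide FLAG-ZMYND8 peaks lay on both sides of the TSS, here without a ZMYND8 peak. ERLIN1, the paralogue of ERLIN2, had a ZMYND8 peak of 1534 bp at its TSS, where ERLIN2 had none.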

How the data were processed

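Per the study's methods, the authors aligned reads with BWA-MEM (build hg19) and made profiles in HOMER. The peak caller's settings and how replicates were combined are not given in the sources used here. Each deposited list gives peak starts and ends, and a score that the authors set to 1 in every row, so peaks were ranked by width. The lists hold no counts, and the depth is unknown. Genes came from release 44 of GENCODE, lifted to GRCh37, which is the build hg19, and all peaks lay within its chromosome lengths. TSSs are the 5′ ends of gene records. No column of per-sample values was present, so 0 were left out.

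The 7 genes, the 13 relatives and all thresholds were chosen with earlier results of these data known. The genes named are the 7, those at the ends of the dense stretch, those whose peak at the TSS or lack of one marks where binding ends, and ZNF503. ADGRA2, ERLIN1, TCHH, the HOXC genes and the lncRNA genes under wide peaks were named after their values were seen. Shares have exact (Clopper-Pearson) 95% intervals, which cover counting error only. No test was made. Alternatives for windows, steps, gaps, peaks and overlaps are given in the closing section. The functions were tested on simulated lists, where 500 of 500 planted genes were recovered. Scripts ran under Python 3.11.15, with pandas 2.3.3, numpy 2.4.6, matplotlib 3.10.9 and scipy 1.17.1.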

Additional observations from a re-analysis of the deposited data

How the results depend on the processing

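Of 50 recomputed summary values, 36 stayed close to the value reported and 14 moved, while of 98 counts for single genes 72 stayed close and 26 moved, with 38 of 40 counts of 0 staying at 0. These values are counts, lengths, widths and shares, which have no direction to turn. Of 58 counts above 0, 5 fell to 0, namely the ZMYND8 peak at the LINC01605 TSS and the FLAG-ZMYND8 peak at the GOT1L1 TSS within 1 kb, and, with only the peaks wider than the minimum, the latter again, the FLAG-ZMYND8 peak in ERLIN2 and the ZMYND8 peak in RAB11FIP1. FLAG-ZMYND8 then marked 5 of the 7 TSSs under either setting. ZMYND8 marked the TSS of 1 of the 7 genes within 1 kb and of 4 within 10 kb, by the construction of the window. The ZMYND8 dense stretch, 300 kb as reported, was 550 kb with the 95th percentile, 150 kb with 25 kb steps and 500 kb with 100 kb steps, and the FLAG-ZMYND8 stretch of 550 kb was 200 kb with 25 kb steps and no longer held ZNF703. The ZMYND8 chain at ZNF703 became 64.2 kb when gaps of 20 kb were joined. The FLAG-ZMYND8 chain became 34.6 kb with gaps of 5 kb, 294 kb with gaps of 20 kb and 34.6 kb with only the peaks wider than the minimum, and was the longest of its list under none of these. With a reciprocal overlap of 50%, 24.5% of the ZMYND8 peaks of the stretch were shared beside 16.5% of the rest, and 5.94% of the FLAG-ZMYND8 peaks beside 3.91%. With only the widest FLAG-ZMYND8 peaks, as many as the ZMYND8 list has, 35.6% were shared beside 28.7%. Among ZMYND8 peaks wider than the minimum, the median width was 604 bp beside 304 bp. Beyond what the settings fix by construction, the cause was not tested. No paired analysis was possible because each list pools its replicates or does not name them, and leaving out a replicate was not possible either. The unknown depth limits what the absence of a peak can mean, so a TSS without a peak is one without a listed peak.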
